A study of Homo sapiens with 8 samples.

Results

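The genome-wide CRISPR screen compared cells with little and cells with much Serpin B5, and all 19113 genes scored in its library are described, of 19221 genes measured over both libraries of the series. AsPC-1, a human pancreatic ductal adenocarcinoma line that stably expressed Cas9, was infected with the Brunello guide library and fixed in methanol on day 8. An antibody to Serpin B5 stained the cells, which were then sorted into a low, a bulk and a high bin, of which the bulk bin held most cells and the high bin the fewest. All bins came from this single line under the same conditions, with no drug beyond the antibiotic selection after infection and no further allele. Each bin was 1 library, so the guides of a gene are the only repeats. Guide counts hold no expression, so they cannot check the identity of the line, and SERPINB5 itself serves as the check of the sort.

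In such a screen each cell carries a guide that lets Cas9 cut its target gene. The bin in which a guide accumulates shows how cells with that guide stained. Guide counts do not show which of these cells had lost the gene. Serpin B5 is a serpin encoded by SERPINB5, which the study used as a reporter of KLF5, a zinc finger protein that binds DNA in epithelial cells. Such factors act through coactivators: SAGA and p300 acetylate histones, Mediator links activators to RNA polymerase II, and general factors place the polymerase at the promoter.

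The libraries held between 90421905 and 102155005 counts over 77441 guides, and 76980 guides with a mean normalized count of at least 30 were kept. The guide ratio was log2 of the normalized count in the low over that in the high bin, and the gene score was its mean over guides. A positive score means that guides were richer in the low bin, and errors are standard deviations (SD) over guides. A gene was called when its score was at least 1 in size and all its guides, 3 or more, had the same sign. With 1 library a bin no p-value is given, and a call describes these libraries only. Of 994 control guides that target no gene, 1 (0.101%) lay past 1 in size, and their SD was 0.16. Among guides against genes, 1603 of 75986 (2.11%) lay past 1. Control guides had a median normalized count of 2359, against 1058 for guides against genes. Their spread was thus measured at greater depth and may understate that of guides against genes.

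Of 19103 genes with at least 3 guides, 197 (1.03%) were called with guides richer in the low bin, and 91 (0.476%) were called for the high bin. SERPINB5 had mean normalized counts of 6558 in the low, 225 in the bulk and 43.3 in the high bin, and KLF5 2943, 393 and 154. These were the highest scores, 7.08 ± 1.29 and 4.70 ± 1.19 (4 guides each), and their lowest guides stood at 5.56 and 3.22. The low tail was made mostly of the transcription and ribosome machinery. Of the called genes in the low tail 30 belonged to coactivator lists, 18 to RNA polymerase lists and 58 to translation lists. The coactivator and polymerase lists, of 73 and 65 genes, held no call for the high bin, and the translation lists, of 335, held 3. Several other themes had calls in both directions. The chromatin lists, of 255 genes, held 18 calls for the high and 9 for the low bin, and the RNA lists, of 309, held 14 and 10. Lists of protein folding and modification, of 161 genes, held 10 and 3, and those of initiation and elongation, of 111, held 9 and 9. Mitochondrial lists, with 203 genes, held no call in either direction.

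**Figure D1:**
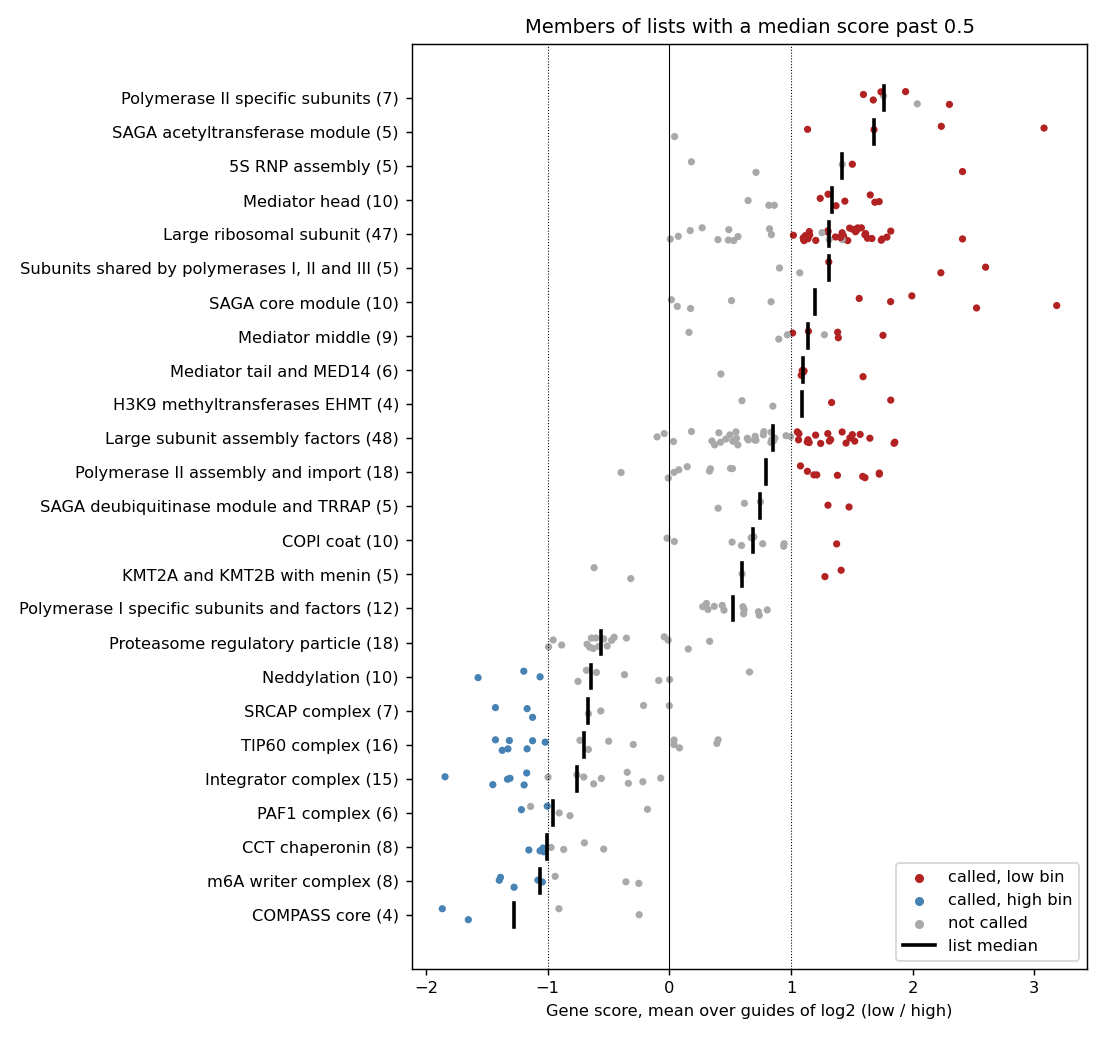
Gene scores (horizontal axis, mean over guides of log2 of low over high) of the members of every list of at least 4 genes whose median score was at least 0.5 in size, with the number of members in brackets. Each point is a gene, black bars are list medians, and dotted lines mark the scores of -1 and 1, from polymerase II specific subunits with a median of 1.76 to the COMPASS core with -1.28.

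A call required all guides of a gene on the same side of 0, which held for 22.6% of all genes, so the sign says nothing more of the called genes. Their spread over guides was larger than the median SD of 0.21 over all genes. In the low tail the median SD was 0.53, and in 70 of 197 genes even the weakest guide was at 1 or above. Without the strongest guide 153 of the 197 remained called. In the high tail the median SD was 0.32, the weakest guide was past 1 in 33 of 91 genes, and 63 remained called without the strongest guide. An SD over 1 occurred in 25 low-tail genes and in 1 high-tail gene, the acetyltransferase KAT5. Called genes of the low tail also had fewer counts, with a median of 671 per guide against 1109 in the high tail and 1132 over all genes, and whether this depth bore on their spread was not tested. A further 14 genes passed the score and were not called because a guide had the other sign, among them the polymerase subunits POLR2I (2.04 ± 1.97) and POLR2B (1.76 ± 1.30), the ribosomal protein RPL5 (1.42 ± 1.06), and CTR9 of the PAF1 complex (-1.14 ± 0.82).

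**Figure D2:**
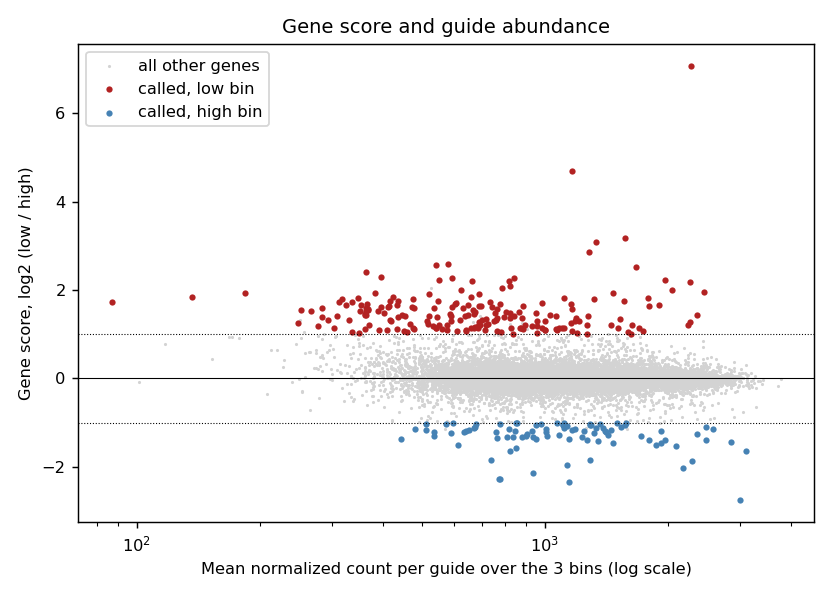
Gene score (vertical axis, log2 of low over high) against the mean normalized count per guide over the 3 bins (horizontal axis, log scale). Each point is a gene, and red points are the 197 genes called for the low bin and blue points the 91 called for the high bin. The called genes of the low bin reach down to a mean normalized count of 86.8, and those of the high bin to 443.

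SAGA, the coactivator that acetylates histone H3 and removes ubiquitin from H2B, had 11 of 20 members called richer in the low bin, against 1.03% of all genes, and all 20 scored above 0. In TADA1 (chromosome 1, 166856510 to 166876264), an adaptor of the core module, the mean counts were 2938 in the low, 1300 in the bulk and 476 in the high bin. Its score was 3.18 ± 1.00, and its guides lay at 4.31, 3.70, 2.55 and 2.17. In the acetyltransferase module the reader CCDC101 (2.24 ± 0.54) and the adaptors TADA2B (3.08 ± 0.75) and TADA3 (1.14 ± 0.66) were called. The catalytic KAT2A had counts of 1774, 1168 and 536 and scored 1.68 ± 0.55, while its paralog KAT2B scored 0.04 ± 0.24. The members were uneven within the modules. In the core module the SAGA-specific TAF6L (2.53 ± 0.42), SUPT20H (1.99 ± 0.95) and TAF5L (1.82 ± 1.43) were called together with TAF12 (1.56 ± 1.43), but SUPT3H (0.17 ± 0.38) and TAF9 (0.02 ± 0.13) stood near 0. In the deubiquitinase module ATXN7L3 (1.48 ± 0.53) and the protease USP22 (1.30 ± 0.87) were called, and the scaffold TRRAP, shared with TIP60, scored 0.40 ± 0.16. None of the 10 subunits specific to ATAC, the sister complex that also holds KAT2A, was called, with scores between -0.59 and 0.18.

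Mediator had 18 of its 31 members called, all richer in the low bin, against 1.03% of all genes. The calls were spread over its modules. The head had 7 of 10 members called with a median of 1.34, the middle 5 of 9 with 1.14, and the tail with the backbone subunit MED14 5 of 6 with 1.10. All 40 guides of the head were above 0. In MED6, of the head, the mean counts ran from 1062 in the low to 753 in the bulk and 388 in the high bin, a score of 1.72 ± 0.61. MED11 (1.69 ± 0.82), MED30 (1.65 ± 0.65), MED28 (1.44 ± 0.54), MED27 (1.37 ± 1.02), MED8 (1.30 ± 0.37) and MED17 (1.24 ± 0.63) were called with it. The called middle subunits were MED4 (1.76 ± 0.81), MED21 (1.39 ± 0.25), MED7 (1.38 ± 0.87), MED10 (1.14 ± 0.30) and MED9 (1.01 ± 0.44). MED14 scored 1.59 ± 0.62 and the tail subunits MED24, MED23, MED16 and MED15 between 1.08 and 1.11. In the kinase module, which docks on the core and can block the polymerase, MED12 was called (2.86 ± 0.88, 3 guides), while MED13 (0.51 ± 0.44), the cyclin CCNC (0.03 ± 0.34) and the kinase CDK19 (0.10 ± 0.17) were not. MED1, the subunit bound by nuclear receptors, scored 0.16 ± 0.64.

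Other coactivators and histone enzymes of the low tail were single genes or pairs. The acetyltransferase EP300 had mean counts of 2503, 1465 and 713 in the low, bulk and high bins, and its guides lay between 1.01 and 2.46. Its paralog CREBBP scored -0.64 ± 0.57. The helicase CHD4 (2.27 ± 0.11) and its partner GATAD2A (1.36 ± 0.27) were called out of 15 NuRD members. The H3K9 methyltransferases EHMT2 (1.82 ± 0.32) and EHMT1 (1.33 ± 1.23) came with their zinc finger partners ZNF644 (0.85 ± 0.23) and WIZ (0.60 ± 0.38), neither called, and all 16 guides of these genes were above 0. DOT1L, the H3K79 methyltransferase, scored 1.32 ± 0.27, and BAP1, which removes ubiquitin from H2A, 1.64 ± 0.21. The histone chaperones SUPT6H (1.54 ± 0.63), CABIN1 (1.08 ± 0.71) and CHAF1B (1.05 ± 0.24) were called out of 14.

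RNA polymerase II had 8 of 12 subunits called for the low bin, against 1.03% of all genes. All 12 stood above 0, with a median of 1.75. POLR2L, a small subunit shared by polymerases I, II and III, had mean counts of 967, 464 and 223 in the low, bulk and high bins, a score of 2.23 ± 0.51 with all guides at 1.93 or above. Other subunits were far less even, among them the called POLR2F (2.60 ± 1.49) and POLR2G (1.68 ± 1.30), while POLR2D (1.60 ± 0.78) and POLR2K (1.31 ± 0.68) were called with less spread. The guides of POLR2J lay at 4.72, 1.82, 1.20 and 0.02, and those of POLR2C at 4.26, 3.44, 1.19 and 0.32. POLR2A, the catalytic subunit, had the lowest mean count among the called genes, 139 (low), 82.5 (bulk) and 39.3 (high), and scored 1.74 ± 0.83. POLR2J3, a near copy of POLR2J, scored 1.24 ± 1.67 with 2 of its 4 guides above 0, and reads of near-identical copies may not be separable. Polymerases I and III stood lower. None of the 12 genes specific to polymerase I was called (median 0.53, all above 0), nor of the 21 specific to polymerase III (median 0.20), and POLR1C, which both contain, was called at 1.09 ± 0.25.

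Of 18 factors that assemble polymerase II in the cytoplasm and carry it to the nucleus, 9 were called richer in the low bin. The share over all genes was 1.03%. The small GTPases GPN1 (1.61 ± 0.27) and GPN2 (1.59 ± 0.26) were even over guides, with GPN1 at mean counts of 965, 495 and 314, while GPN3 scored 0.52 ± 0.06. The polymerase-associated proteins RPAP2 (1.73 ± 1.22) and RPAP1 (1.13 ± 1.15) were called with wide spread, and RPAP3 scored 0.50 ± 0.19. RUVBL1 (1.73 ± 0.59) and RUVBL2 (1.08 ± 0.46), paired ATPases of the R2TP chaperone and of chromatin remodellers, had guides between 1.10 and 2.29 and between 0.55 and 1.61. Called beside them were the prefoldin-like subunits URI1 (1.21 ± 0.55), UXT (1.19 ± 0.21) and PDRG1 (1.38 ± 0.57). PIH1D1, the adaptor of R2TP, scored 0.04 ± 0.22 and TELO2, of the TTT cochaperone, -0.01 ± 0.25. The transporter XPO1, the main export receptor of the nucleus, was the called low-tail member among 21 importins and exportins (1.58 ± 0.52).

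Of the general factors, TFIIA and TFIIB, which steady TBP on the promoter, were called in full. GTF2A2 (chromosome 15, 59638062 to 59657515) had mean counts of 1418, 693 and 358 in the low, bulk and high bins and scored 2.08 ± 0.47, GTF2B scored 1.91 ± 0.85 and GTF2A1 1.80 ± 0.47. All 12 guides of these 3 genes were at 1.06 or above. TFIID had TAF1 (1.23 ± 0.72) and TBP (1.02 ± 0.59) called out of 12, and none of the 4 genes of TFIIE and TFIIF or the 10 of TFIIH was called. The capping enzyme RNGTT (2.00 ± 0.26), the pausing and elongation factor SUPT5H (1.30 ± 0.31) and CTDP1, the phosphatase of the polymerase tail (1.61 ± 0.77), were also called. In mRNA export 5 of 22 members were called, each for the low bin: the adaptor ALYREF (1.44 ± 1.29), the export receptor NXF1 (1.42 ± 1.05), the THO subunits THOC2 (1.20 ± 0.71) and THOC1 (1.14 ± 0.59), and the helicase DDX39B (1.11 ± 0.38). Their list as a whole stood at a median of 0.33, with 68.2% of its guides above 0.

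**Figure D3:**
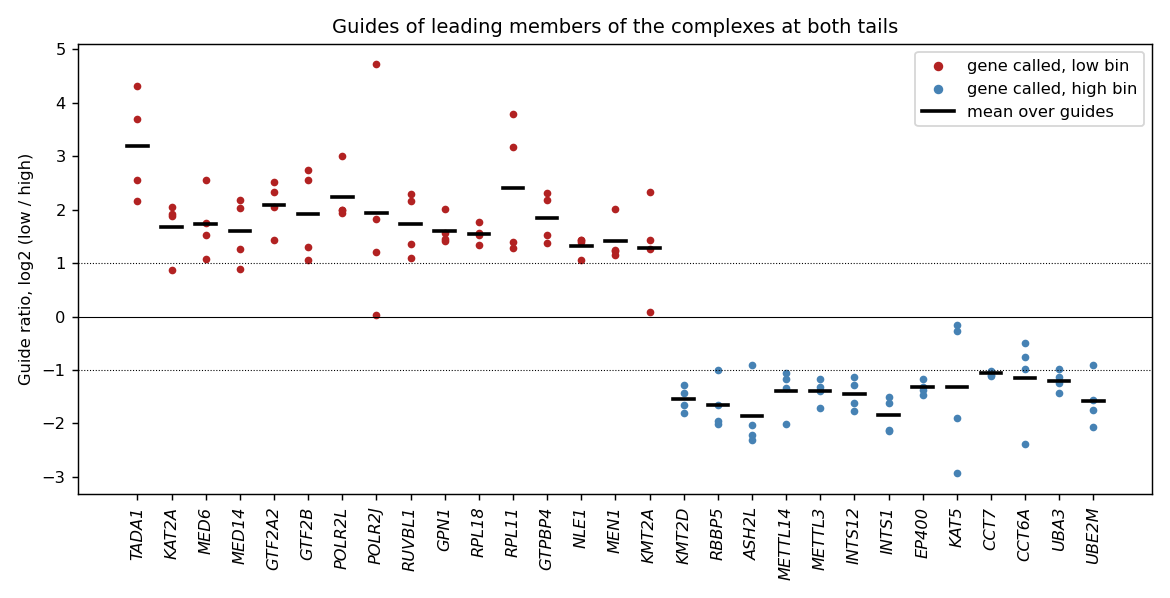
Ratio of each guide (vertical axis, log2 of low over high) for leading members of the complexes at both tails, with the mean over guides as a black bar and dotted lines at -1 and 1. The guides of RPL18 lie between 1.33 and 1.78 and those of CCT7 between -1.11 and -1.02, whereas those of POLR2J reach from 0.02 to 4.72 and those of KAT5 from -2.94 to -0.16.

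The large ribosomal subunit gave the most calls of any list, 33 of 47 proteins, against 1.03% of all genes. Each of these calls was for the low bin. All 47 scored above 0, with a median of 1.31, and 171 of their 186 guides were above 0. RPL18 had mean counts of 392, 235 and 130 in the low, bulk and high bins, a score of 1.55 ± 0.18, and RPL13 661, 449 and 254, a score of 1.40 ± 0.22. RPL11 scored highest at 2.41 ± 1.27, with guides at 3.80, 3.17, 1.39 and 1.29. Of the other called proteins RPL26 (1.82 ± 0.64), RPL37A (1.79 ± 1.16) and the stalk protein RPLP2 (1.75 ± 1.04) scored highest. RPL34, RPL19, RPL36, RPL8, RPL9, RPL31, RPL23A, RPL23, RPL24, RPL35, RPL27A, RPL27, RPLP0, RPL21, RPL13A, RPL10, RPL7, RPL30, RPL15, RPL4, RPL37, RPL3, RPL35A and RPL12 were also called, between 1.02 and 1.66. At the other end of the list RPL41 (0.01 ± 0.39), RPL36A (0.07 ± 0.18) and RPL22 (0.17) stood near 0. The readthrough gene RPL17-C18orf32, which contains RPL17, scored 1.91 ± 0.33 beside 1.61 ± 0.57 for RPL17, and guides against the shared part cannot be told apart by gene.

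Factors that build the large subunit followed their products, with 20 of 48 called, against 1.03% of all genes. Of their 192 guides 178 were above 0. GTPBP4 (chromosome 10, 988434 to 1019932), a nucleolar GTPase, had mean counts of 660, 416 and 198 and scored 1.85 ± 0.46, and the related GTPases GNL3 (1.85 ± 0.73), GNL3L (1.65 ± 0.45) and GNL2 (1.52 ± 0.56) were also called. Calls covered nucleolar steps (NIP7 1.57 ± 0.29, MAK16 1.30 ± 0.45, PES1 1.14 ± 0.43), the remodelling ATPase MDN1 (1.06 ± 0.70) with its substrate NLE1 (1.33 ± 0.19), and the cytoplasmic GTPase LSG1 (1.24 ± 0.46). The late factors SBDS (1.06 ± 0.42) and EFTUD1 (1.59 ± 1.17), which release EIF6 from the new subunit, were called too, outside the list, and EIF6 itself scored 0.77. The other called assembly factors, RSL24D1, CEBPZ, NSA2, SDAD1, WDR74, RPF1, PPAN, NOP2 and NOP16, scored between 1.05 and 1.48. In the 5S particle RPF2 (1.5 ± 0.30) was called beside RPL11.

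The small subunit stood apart from the large in its calls. None of its 33 genes was called richer in the low bin, although 32 were above 0 and the median was 0.44, with RPS9 highest at 0.96 ± 0.97. GNB2L1 (RACK1), a signalling scaffold on the small subunit, was the exception and was called richer in the high bin (-1.39 ± 0.32). None of the 53 small subunit assembly factors was called (median 0.22). The difference between the subunits was not tested. Among initiation factors EIF2S1 (1.80 ± 0.48) and EIF2S3 (1.66 ± 0.23), of the complex that delivers the initiator tRNA, and EIF1AX (1.15 ± 0.17) were called for the low bin, and the helicase EIF4A1 (-1.03 ± 0.53) in the high bin. None of the 13 eIF3 genes was called. Of 22 cytosolic tRNA synthetases NARS (1.65 ± 0.60) and MARS (1.10 ± 0.07) were called, and of 75 mitochondrial ribosomal proteins none, with scores between -0.49 and 0.24.

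Proteins that handle other proteins gave scattered calls in the low tail. HSPA5, the main chaperone of the endoplasmic reticulum (ER), had mean counts of 1168, 565 and 257 in the low, bulk and high bins and scored 2.20 ± 0.28. The unfoldase VCP scored 1.68 ± 0.26, the glycosylation subunit DAD1 1.33 ± 0.32 and the mannosyltransferase ALG11 1.13 ± 0.16. The COPI coat, which returns vesicles to the ER, had 9 of 10 members above 0 with a median of 0.68, and its exchange factor GBF1 was called (1.37 ± 0.87). Casein kinase 2 had all 12 guides above 0 with no call, led by CSNK2B at 0.97 ± 0.87 and CSNK2A1 at 0.92 ± 0.27. Ubiquitin ligases of the low tail were SIAH1 (2.18 ± 0.59), the COP1 gene RFWD2 (1.71 ± 0.32), FBXW7 (1.43 ± 0.57) and RNF128 (1.22 ± 0.14). The ubiquitin-activating enzyme UBA1 (1.20 ± 0.48), the conjugating enzyme UBE2N (1.30 ± 0.14) and the deubiquitinase OTUD5 (1.65 ± 0.40) were called with them.

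At the high tail, the m6A writer complex, which methylates adenosines in mRNA, had 5 of 8 members called, against 0.476% of all genes, and 31 of its 32 guides were below 0. In the catalytic METTL3 (chromosome 14, 21498138 to 21511340) the mean counts were 1259 in the low, 1407 in the bulk and 3249 in the high bin, and its guides lay at -1.17, -1.32, -1.39 and -1.71. Its partner METTL14 had counts of 1170, 1297 and 2926 and scored -1.39 ± 0.43. The adaptors RBM15 (-1.28 ± 0.20), KIAA1429 (-1.08 ± 0.34) and WTAP (-1.04 ± 0.59) were called, ZC3H13 scored -0.94 ± 0.08, and CBLL1 (-0.36 ± 0.37) and RBM15B (-0.25 ± 0.28) stood closer to 0. None of the 11 readers and erasers of the mark was called, with scores between -0.80 and 0.38.

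Integrator, which cleaves nascent RNA and ends transcription by paused polymerase II, had all 15 members and 58 of 60 guides below 0. It had 6 members called for the high bin, against 0.476% of all genes. INTS1 (chromosome 7, 1470277 to 1504389), its largest scaffold, had mean counts of 410, 475 and 1332 in the low, bulk and high bins, a score of -1.84 ± 0.33. INTS12 (-1.45 ± 0.29), INTS7 (-1.33 ± 0.30), INTS5 (-1.31 ± 0.27), INTS8 (-1.19 ± 0.47) and INTS2 (-1.17 ± 0.58) were also called. INTS6, at -1.0 ± 0.33, lay just outside the threshold. The endonuclease CPSF3L scored -0.56 ± 0.43 and INTS9, its partner in the cleavage module, -0.34 ± 0.48. The PAF1 elongation complex had all 6 members below 0, with RTF1 (-1.22 ± 0.43) and PAF1 (-1.0 ± 0.21) called and CDC73 at -0.18 ± 0.35.

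The COMPASS core, shared by the H3K4 methyltransferases, had ASH2L (-1.87 ± 0.65) and RBBP5 (-1.65 ± 0.46) called, DPY30 at -0.91 ± 0.20 and WDR5 at -0.25 ± 0.25, and all 16 guides below 0. The enzymes that use this core pointed in opposite directions. KMT2D, which acts at enhancers, had mean counts of 1173, 1696 and 3430 in the low, bulk and high bins and scored -1.54 ± 0.23, and its paralog KMT2C scored 0.24 ± 0.17. KMT2A scored 1.28 ± 0.92 and its cofactor menin, MEN1, 1.41 ± 0.40 with counts of 1578, 999 and 623. KMT2B scored -0.32 ± 0.20. None of the 5 genes of the SETD1 list was called.

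The TIP60 acetyltransferase and SRCAP complexes, which acetylate nucleosomes and exchange H2A variants, had 7 of 16 and 3 of 7 listed members called. Each was called for the high bin, against 0.476% of all genes. These lists leave out RUVBL1 and RUVBL2, which belong to both complexes and were called for the low bin (1.73 ± 0.59 and 1.08 ± 0.46). EP400 had mean counts of 814, 818 and 2066, a score of -1.33 ± 0.13. KAT5, the catalytic subunit, had guides at -2.94, -1.89, -0.28 and -0.16 and so rested on 2 guides. ING3 (-1.37 ± 0.70) and EPC1 (-1.02 ± 0.55), of the same core, were called too. ACTL6A (-1.43 ± 0.71), DMAP1 (-1.17 ± 0.43) and YEATS4 (-1.12 ± 0.20) count for more than 1 complex. SMARCB1 of the BAF remodeller was called at -1.13 ± 0.35 and SMARCD1 of the same complex scored 0.95 ± 0.51. Corepressors of the high tail were the scaffold SIN3A (-2.02 ± 0.62), the O-GlcNAc transferase OGT with counts of 561, 627 and 2214 (-1.95 ± 0.25), ZNF217 (-2.28 ± 0.40) and the demethylase KDM1A (-1.03 ± 0.51). In the NCoR complex GPS2 (-1.22 ± 0.36) was called richer in the high and TBL1XR1 (1.62 ± 0.62) in the low bin. CHD8, a remodeller of the same family as CHD4, was called at -1.51 ± 0.16, and PDS5A, a regulator of cohesin, at -1.20 ± 0.14.

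The CCT chaperonin, which folds actin and tubulin, had all 8 subunits and all 32 guides below 0, with a median of -1.0. For the high bin 4 subunits were called, against 0.476% of all genes. CCT7 had mean counts of 701, 682 and 1464 in the low, bulk and high bins, and its guides lay between -1.11 and -1.02. CCT6A had a guide at -2.39 and its other guides between -0.98 and -0.49, CCT2 and TCP1 scored -1.03 ± 0.33 and -1.04 ± 0.33, and the lowest in size was CCT8 at -0.54 ± 0.32. Prefoldin, which hands clients to CCT, had none of 6 genes called and scores between -0.05 and 0.82. The regulatory particle of the proteasome had no call, with 16 of 18 members below 0 and a median of -0.56, led by PSMD2 (-0.99 ± 0.34) and PSMD12 (-0.96 ± 0.19). The proteasome core, with 14 genes all below 0, had a median of -0.29.

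Genes for the conjugation of ubiquitin-like proteins were also called richer in the high bin. For NEDD8, the modifier that activates cullin ligases, the activating subunit UBA3 had mean counts of 1238, 1697 and 2826 in the low, bulk and high bins (-1.20 ± 0.19), and the conjugating enzyme UBE2M scored -1.57 ± 0.49 and NEDD8 itself -1.06 ± 0.35. NAE1, the other activating subunit, scored -0.68 ± 0.43, and the second conjugating enzyme UBE2F 0.00 ± 0.12. For SUMO, the activating subunits UBA2 (-1.06 ± 0.34) and SAE1 (-1.0 ± 0.27) were called, whereas SUMO2 scored -0.67 ± 0.51. KEAP1, the cullin adaptor for NRF2, had counts of 1635, 2501 and 5182 and scored -1.63 ± 0.26, CUL3, the cullin it binds, -0.96 ± 0.42, and NRF2 itself, NFE2L2, 0.84 ± 0.16 with no call. In the library focused on transcription factors NFE2L2 had the other sign and was called for the high bin (-2.17 ± 1.48, 5 guides), so its direction differed between the libraries. None of the 9 COP9 signalosome genes, which remove NEDD8, was called, with scores between -0.27 and 0.27.

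Other calls of the high tail fell in RNA processing and nuclear transport. STRAP, a WD repeat protein of the SMN complex, had mean counts of 457, 605 and 2377, a score of -2.34 ± 0.17, while the remaining 16 members of its list lay between -0.47 and 0.28. The splicing factors SRSF7 (-1.30 ± 0.09), SLU7 (-1.26 ± 0.96), DHX15 (-1.21 ± 0.27), SFSWAP (-1.25 ± 0.42) and SUGP1 (-1.20 ± 0.22), the lariat debranching enzyme DBR1 (-1.21 ± 0.44), and the RNA-binding protein TARDBP (-1.24 ± 0.27) were called, whereas SRSF2 was called in the low bin (1.05 ± 0.80). The import receptors IPO13 (-1.27 ± 0.08), TNPO1 (-1.14 ± 0.24) and IPO11 (-1.02 ± 0.32) and the pore basket protein TPR (-1.18 ± 0.16) were called. SRP14, of the particle that brings secretory proteins to the ER, was called (-1.01 ± 0.27), and 16 of the 18 genes of its list were below 0. The 3′ end phosphatase SSU72 (-1.09 ± 0.22), the deadenylase partner CNOT4 (-1.20 ± 0.22) and DPH3 (-1.04 ± 0.33), of diphthamide synthesis, were each the called member of their lists. The exosome RNase DIS3 was called for the low bin (1.18 ± 0.44), 1 call in a list of 21 genes with a median of 0.12. DIS3 lies on chromosome 13 (72752169 to 72781900) near KLF5 (73054976 to 73077538), and whether cuts at DIS3 affected KLF5 was not tested. Called genes of the high tail in no list included the helicase SBNO1 (-2.27 ± 0.67), PYROXD1 (-1.51 ± 0.28), ZC3HC1 (-1.46 ± 0.26), TNRC18 (-1.42 ± 0.25) and FAM122A (-1.40 ± 0.26). NKAP (-1.32 ± 0.45), PPIL2 (-1.29 ± 0.56), TSC22D2 (-1.36 ± 0.31) and the zinc finger protein ZNF148 (-1.30 ± 0.22) were of the same kind. Superoxide dismutase SOD1 (-1.14 ± 0.19) and the transferrin receptor TFRC (-1.35 ± 0.41) were among the 27 called genes of the high tail in no list.

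Cell cycle lists, with genome replication among them, had 191 genes and held 6 calls (3.14%), all for the low bin. Metabolism lists, of 157 genes, held 2 calls for the low bin (1.27%) and 1 for the high bin, OGT. Of all genes 1.03% were called for the low and 0.476% for the high bin. Of 28 genes that license and fire replication origins 27 scored above 0, and the kinase CDC7 (1.84 ± 1.5) and the licensing inhibitor GMNN (1.53 ± 0.39) were called. The list stood at medians of 0.29 for low over bulk and 0.04 for bulk over high. The topoisomerase TOP2A (1.26 ± 0.56), the primase subunit PRIM2 (1.12 ± 0.84) and the checkpoint kinase CHEK1 (1.18 ± 0.99) were also called, with CDCA8 (1.02 ± 0.77) of the chromosomal passenger complex. In metabolism MAT2A, which makes the methyl donor S-adenosylmethionine, scored 1.54 ± 0.46, and HMGCS1, of cholesterol synthesis, 1.39 ± 0.30. The remaining 20 genes of the cholesterol list lay between -0.29 and 0.45, and the remaining 14 of the one carbon list between -0.25 and 0.14. The RNase ZC3H12A (2.20 ± 0.53) and the channel kinase TRPM7 (1.92 ± 1.37) had scores near 2, and the relatives ZC3H12B, ZC3H12C and ZC3H12D scored between 0.09 and 0.16. The translation factor ABCF1 had the smallest spread of the low tail, 1.21 ± 0.05.

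In signalling and transcription factor families, calls ran in both directions and were in part opposed. Transcription factor lists, of 286 genes, held 9 calls for the low (3.15%) and 6 for the high bin (2.10%). Signalling lists, of 183 genes, held 4 (2.19%) and 3 (1.64%), against 1.03% and 0.476% of all genes. In the PI3K pathway the kinases PIK3CA, with counts of 885, 533 and 344 (1.42 ± 0.33), PDPK1 (2.27 ± 1.21) and MTOR (1.21 ± 0.35) were called for the low bin. AKT1 scored 0.87 ± 0.26, and the mTORC2 subunits MAPKAP1 and RICTOR 0.98 ± 0.52 and 0.84 ± 0.56, against -0.03 ± 0.24 for RPTOR of mTORC1. ID1, which sequesters E proteins, was called in the low bin (1.63 ± 0.89), and the E proteins TCF3 (-1.05 ± 0.11) and TCF12 (-1.09 ± 0.11) in the high bin. The Hippo suppressor NF2 (1.33 ± 0.50) was called in the low bin, and CAB39, the partner of the kinase LKB1 (-1.17 ± 0.13), and the phosphatase PPP4C (-1.01 ± 0.14) in the high bin. The Wnt receptor FZD5 (1.71 ± 0.32) and the beta-catenin cofactor BCL9L (1.64 ± 0.86) were called from outside the Wnt list, in which none of 18 genes was. The low tail also held SOX9 (2.04 ± 0.66), TFAP2A (1.96 ± 0.94), ZBTB7A (1.92 ± 0.61), GATA6 (1.44 ± 1.25) and the AP-1 genes JUNB (1.46 ± 0.48) and FOSL1 (1.42 ± 0.52). The nuclear receptor ESRRA scored 1.05 ± 0.51. The high tail held KLF3 (-2.76 ± 0.79, 3 guides), MYRF (-2.14 ± 0.54, 3 guides), TGIF1 (-1.85 ± 0.26), PPARG (-1.38 ± 0.50) and EHF (-1.33 ± 0.38). The other 24 KLF and SP genes were not called and lay between -0.27 and 0.42.

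The bulk bin lay as follows in each tail. In the low tail the median was 0.60 for low over bulk and 0.84 for bulk over high, the bulk count lay between the others in all 197 genes, and the step from bulk to high was the larger in 155. In the high tail the medians were -0.20 and -1.08, the bulk count lay between the others in 76 of 91 genes, and the step from bulk to high was the larger in all 91. Both ratios use the bulk library, and the bulk bin is the widest gate, so the steps are not independent measurements. Lists differed in this split. COPI had medians of 0.55 for low over bulk and 0.06 for bulk over high, and polymerase II specific subunits 0.94 and 0.99, whereas Mediator tail subunits with MED14 had 0.26 and 0.84. The regulatory particle of the proteasome had 0.00 and -0.49. The ligase RFWD2 had 820 counts in the low, 736 in the bulk and 257 in the high bin, so the bulk level was close to the low level there.

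**Figure D4:**
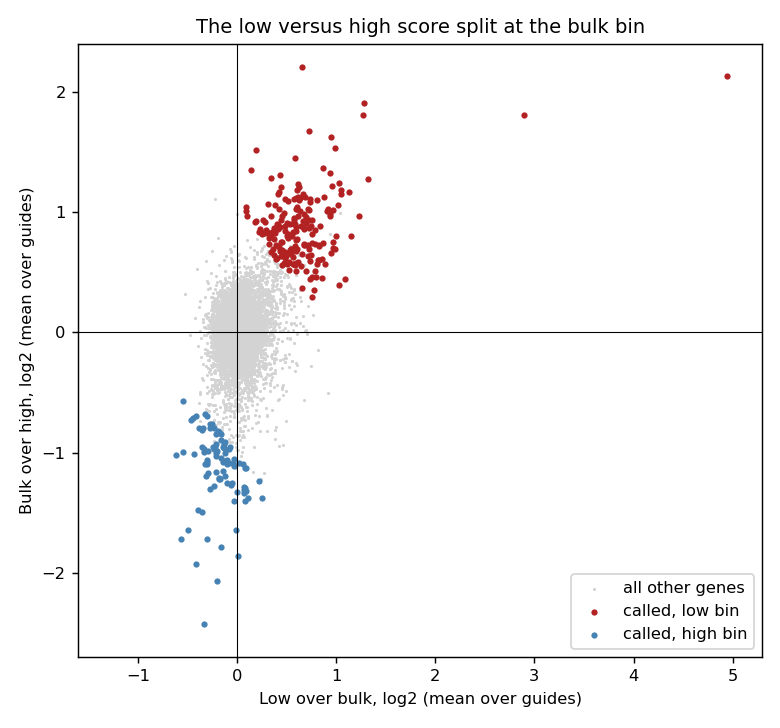
Low over bulk (horizontal axis) against bulk over high (vertical axis), each a mean over guides on the log2 scale. Each point is a gene, red points are genes called for the low bin and blue points those called for the high bin, and the blue points lie close to 0 on the horizontal axis, with a median of -0.20, and near -1.08 on the vertical axis.

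Of the called genes, 27 were also targeted by different guides in the library focused on transcription factors, sorted in the same way with 1 library a bin. Its high library was taken from its title and its column, although its description says bulk. There 1 of 1419 genes (0.0705%) was called for the low bin and 16 (1.13%) for the high bin. The SD of its control guides was 0.69, above the 0.16 of the genome-wide screen. Of 14 genes called in the low tail 9 scored above 0 in that library, against 41.4% of the 1405 genes in both libraries, and KLF5 was called (1.80 ± 1.39, 6 guides). TADA2B followed at 0.67 ± 0.37, while SOX9 (-0.04 ± 0.80), TFAP2A (-0.09 ± 0.57) and GATA6 (-0.48 ± 1.03) did not score above 0. Of 13 genes called in the high tail 12 scored below 0, against 58.6% of all shared genes, and ZNF217 was called (-1.10 ± 0.42, 3 guides). ZNF281 was the exception, with 0.38 ± 0.42 against -1.11 ± 0.21 in the genome-wide screen.

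**Figure D5:**
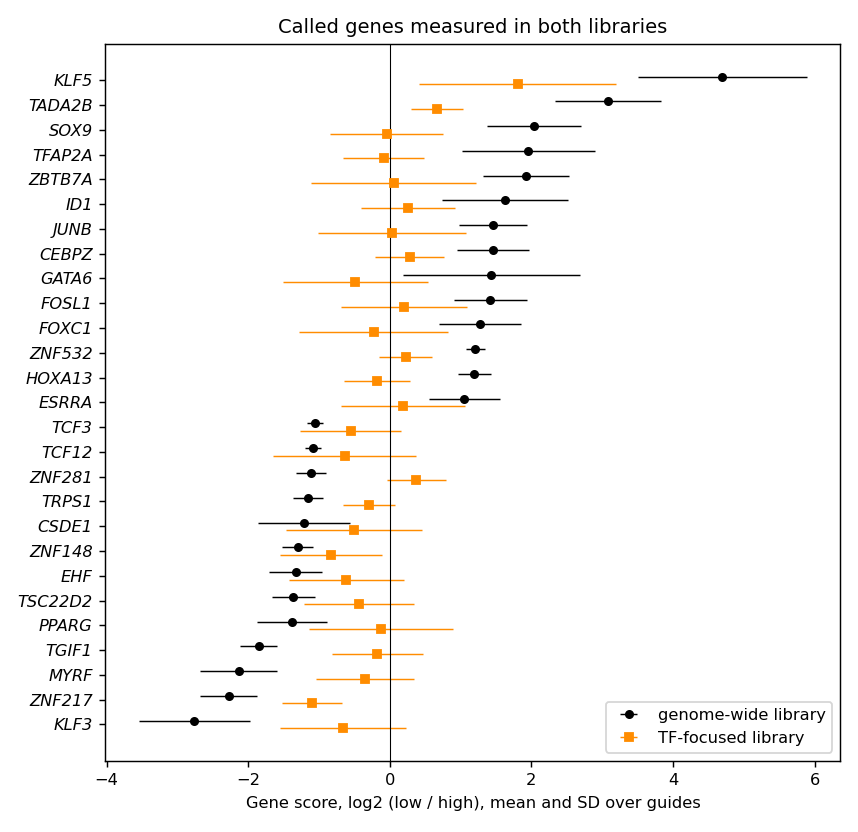
Scores (horizontal axis, log2 of low over high, mean with SD over guides) of the 27 called genes that both libraries targeted, in the genome-wide library (circles) and the library focused on transcription factors (squares). KLF5 stands at 4.70 and 1.80 and ZNF217 at -2.28 and -1.10, while most other squares lie closer to 0 than their circles.

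Just inside the threshold of the low tail stood NOL12, MED9 and KCNK5, each at 1.01, and just outside DDX54 and KRT18, each at 1.00, and CCNL1 at 0.99. KRT8, the partner of KRT18 in epithelial filaments, scored 2.58 ± 1.03. Lists kept for comparison gave no call. Of all genes 1.03% were called for the low and 0.476% for the high bin, so lists of this size would hold few calls or none. The 59 olfactory receptors of family 2 lay between -0.24 and 0.34, and the 33 serpins other than SERPINB5 between -0.24 and 0.46. The respiratory chain, glycolysis and the V-ATPase gave no call either, which the same shares limit.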

How the data were processed

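The authors infected Cas9-expressing AsPC-1 cells, sorted the stained cells, amplified guides by PCR from genomic DNA and deposited raw read counts per guide, with no normalization, and the submitters' processing notes name MAGeCK and hg38. MAGeCK was not used here. From the deposited counts of the low, bulk and high libraries, median-ratio size factors over all guides were applied, 461 guides with a mean normalized count under 30 were dropped, 5 was added to each count, and log2 ratios were centred on the median guide that targets a gene. Scores needed 2 guides and calls 3. Samples were grouped by their titles. Reads carry no stated molecular identifiers, so counting error understates the error. The 179 gene lists and all members were chosen with earlier results of these data known. Named genes are SERPINB5, KLF5, RUVBL1, RUVBL2, EP300, the called genes at ranks 1 to 50 of each tail, called members of lists, the extreme members of lists with few calls, and genes called in both libraries. Paralogs, partners and other genes named outside this rule were chosen after their values were seen. Positions are those of RefSeq on the hg38 assembly. Deposited columns of the second low and bulk pair were not used. Scores used Python 3.11.15 with pandas 2.3.3. Scoring was tested on simulated data. Alternatives are given in the closing section (R 4.3.3, edgeR 4.0.16, limma 3.58.1). Some genes of this rule are not reported here.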

Additional observations from a re-analysis of the deposited data

How the results depend on the processing

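The counts of 197 and 91 called genes moved by over 1.5 times under other thresholds and another rule only. With a threshold of 0.75 they were 307 and 158, and with 1.5 they were 82 and 16. A limma moderated test over guides, with Benjamini-Hochberg adjusted p under 0.05, called 481 genes for the low and 344 for the high bin, of which 191 and 90 were among the genes called here. That test compares these libraries and not repeats of the sort. In the 12 alternatives other than the thresholds, 140 of the low-tail and 62 of the high-tail genes kept their call wherever they were scored. Not all of these could lose calls: the centring largely undid other scaling, and leaving out the sign rule could only add calls. A gene that an alternative left with too few guides to score was not counted as lost. Under a low-count filter of 200, 182 of the 197 low-tail genes were still called. No median of the 33 lists past 0.5 changed sign. No called score did so either, but a call required all guides on the same side of 0, which left little room for a change. Lists past 0.5 numbered between 28 and 33. Of genes looked up in the library focused on transcription factors 21 of 27 had the same sign, and 8 of 10 with a threshold of 1.5. RUVBL1 and EP300 lost their call in none of the 12 alternatives, and RUVBL2 lost its call without its strongest guide (0.90). No paired analysis was possible because each bin was 1 library.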
